A study of Mus musculus with 2 samples.

Results

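The genes described here encode the kinesin, dynein and dynactin machinery that moves cargo along microtubules. They were chosen by name: every gene with a protein_coding transcript whose symbol begins with Kif, Klc or Dctn and a digit, with Dync1 or Dync2, or with Dynl. The rule found 65 of the 21901 genes with a protein_coding transcript. It used no measured value. RNA came from hippocampus, labelled as a layer of it, of male mice of B6CASTF1/J, an F1 hybrid between C57BL/6J and CAST/EiJ, at 2 months of age. Total RNA, 300 ng a library, was purified with a Norgen kit and sequenced with ERCC spike-ins, control RNAs added here in a mix for stranded, ribosome-depleted libraries. The 2 libraries, biological replicates 1 and 2, form 1 group with no treatment or second genotype, so nothing was tested between groups and no p-value was computed. That the libraries come from separate animals rests on the replicate numbers, since both carry the same donor label, which names the strain.

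Kinesins are motors of which most walk toward the plus ends of microtubules, outward along an axon, while cytoplasmic dynein 1, with its cofactor dynactin, walks toward the minus ends and carries cargo back to the cell body. Neurons depend on both for synaptic vesicle precursors, mitochondria and signalling endosomes. Another set of kinesins builds the mitotic spindle and separates daughter cells, and it is made mostly in dividing cells, which neurons no longer are. In bulk RNA, fewer cells of a type and less RNA per cell cannot be told apart.

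The total expected count, the estimated number of reads assigned to genes, was 31422827 in replicate 1 and 31303010 in replicate 2. The 65 genes held 301635 and 294692 of those counts, or 0.960% and 0.941%. Levels are given as TPM, an abundance scaled by transcript length and library total, so that genes can be set side by side. A gene was called detected at 1 TPM or more in both libraries, and 49 of the 65 genes, 75.4%, met that, against 57.9% of all 21901 genes. The median level was 9.73 TPM over the 65 genes and 3.29 TPM over all genes. All 5 neuronal markers (113 to 902 TPM in the mean of both libraries), all 4 hippocampal markers (10.2 to 1044 TPM) and all markers of astrocytes, oligodendrocytes, microglia and endothelial cells were detected. The RNA is thus that of a mixed tissue, and the share of each cell type in a level was not tested.

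**Figure D1:**
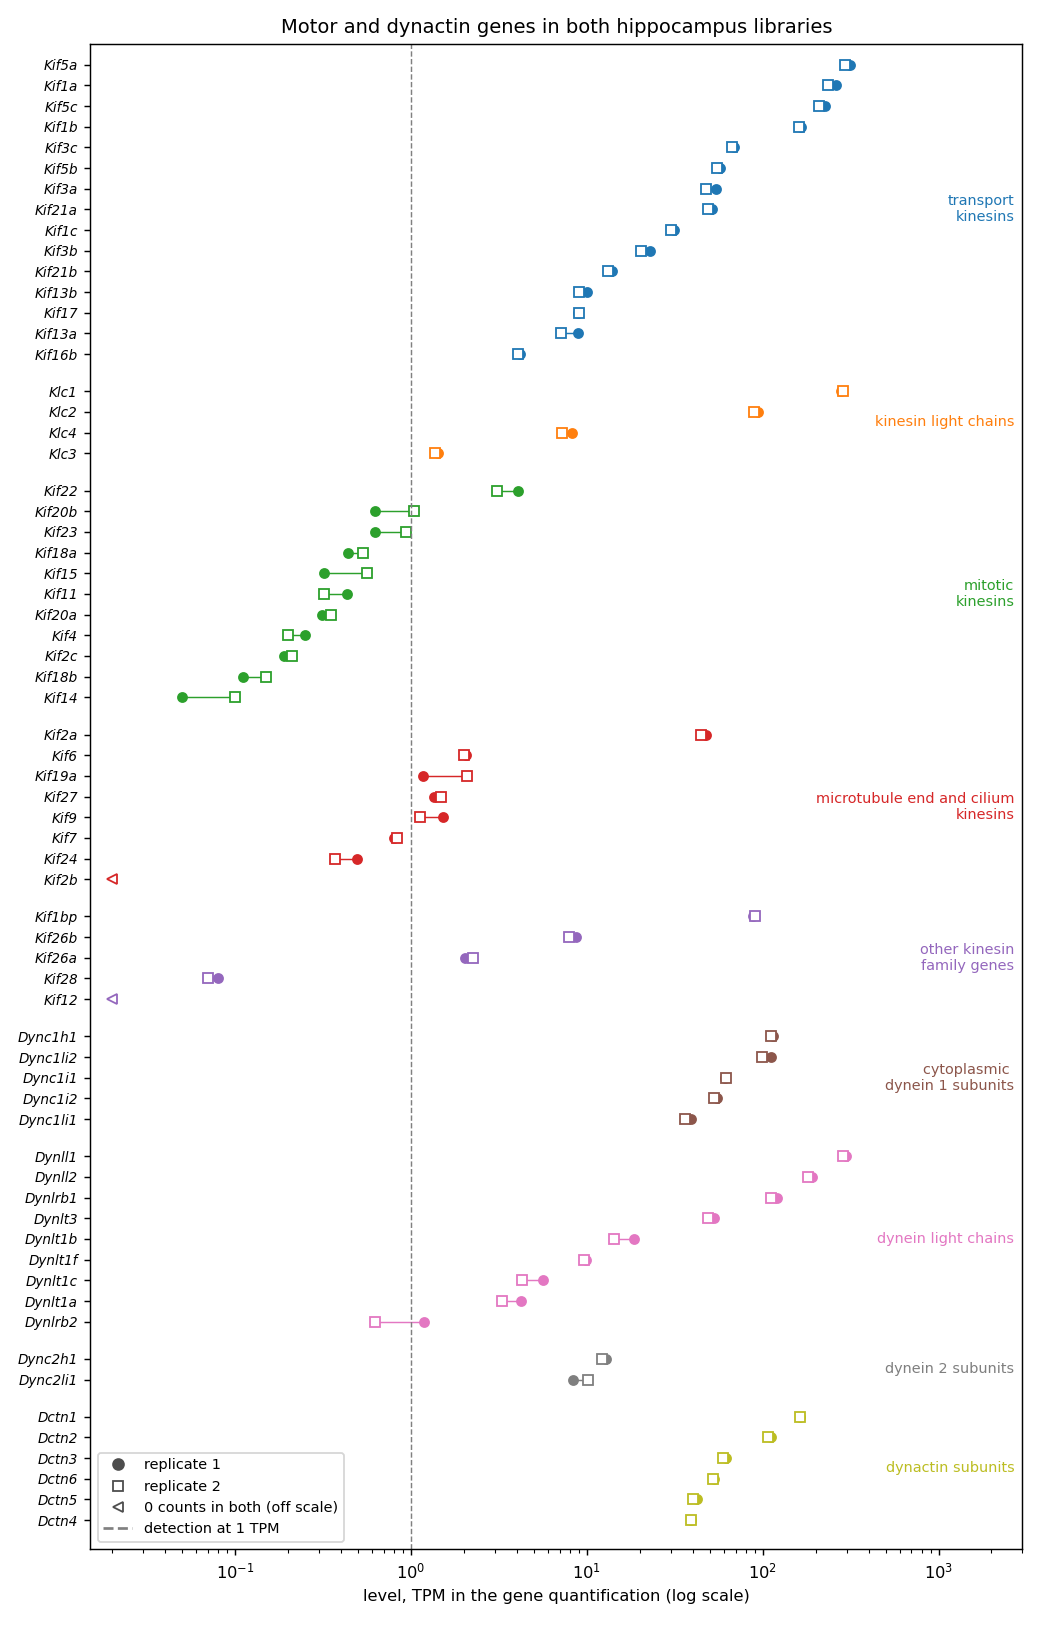
TPM of all 65 genes in replicate 1 (filled circles) and replicate 2 (open squares) on a log axis, grouped by role and sorted by mean level within a role. All 15 transport kinesins sit right of the dashed line at 1 TPM, and 10 of the 11 mitotic kinesins lie left of it in at least 1 library.

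All 15 transport kinesins were detected, with a median of 50.3 TPM, close to that of the kinesin light chains (49.8 TPM; in replicate 2 the transport median was 47.4 TPM and the light chain median 48.3 TPM), and together they held 182035 counts in replicate 1 and 176253 in replicate 2. Only 1 of the 11 mitotic kinesins was detected, the mitotic median was 0.375 TPM, and the whole mitotic set held 233 and 245 counts. In a second quantification of the same reads, deposited per transcript and summed here per gene, 5 of the 11 were detected and the mitotic median was 0.856 TPM. Of all 21901 genes, 13580 were detected there. No mitotic kinesin was detected when transcripts under 300 bases were left out of the first transcript quantification, and 3 reached 0.5 TPM in both libraries of the gene quantification. The share of all genes was not computed for these settings. The ratio of the transport median to the mitotic median was 161 in replicate 1 and 135 in replicate 2 (148 ± 17.9, SD, n = 2). In the second quantification it was 85.6 and 83.8. The lists, drawn up with earlier results of these data known, did not overlap in either library. The lowest transport kinesin had 4.18 and 4.08 TPM, and the highest mitotic kinesin, Kif22, had 4.04 and 3.07 TPM from 31 and 20 counts. In the second quantification the lowest transport kinesin had 6.68 and 6.50 TPM. The highest mitotic kinesin there was Kif2c in replicate 1, with 3.95 TPM, and Kif22 in replicate 2, with 3.97 TPM. This gap depends on which genes each list holds. Kif2a, placed in the microtubule end and cilium list, had 47.5 and 44.5 TPM.

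The promoters of the 2 most abundant transport kinesins with a RefSeq entry and of the 2 mitotic kinesins with the most reads are shown because these lists differ in level and also in a short promoter motif. Each run is the 250 bases before the RefSeq start on the strand of the gene (RefSeq windows, GRCm38.p6). Capitals mark TTTGAA, the core of the cell cycle genes homology region (CHR) found in many promoters of cell cycle genes, and CCAAT, each on either strand.
Kif1a, chr1:93101875-93102124, minus strand: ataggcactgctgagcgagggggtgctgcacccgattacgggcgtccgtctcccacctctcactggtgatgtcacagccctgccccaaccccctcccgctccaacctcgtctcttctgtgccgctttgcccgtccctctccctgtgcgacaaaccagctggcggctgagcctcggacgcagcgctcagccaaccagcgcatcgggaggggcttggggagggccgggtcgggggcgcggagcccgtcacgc
Kif5c, chr2:49619036-49619285, plus strand: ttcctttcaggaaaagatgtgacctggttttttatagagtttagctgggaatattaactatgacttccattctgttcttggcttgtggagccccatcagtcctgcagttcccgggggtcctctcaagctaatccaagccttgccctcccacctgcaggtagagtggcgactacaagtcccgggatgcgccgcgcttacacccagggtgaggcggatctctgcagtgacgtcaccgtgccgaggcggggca
Kif11, chr19:37376132-37376381, plus strand: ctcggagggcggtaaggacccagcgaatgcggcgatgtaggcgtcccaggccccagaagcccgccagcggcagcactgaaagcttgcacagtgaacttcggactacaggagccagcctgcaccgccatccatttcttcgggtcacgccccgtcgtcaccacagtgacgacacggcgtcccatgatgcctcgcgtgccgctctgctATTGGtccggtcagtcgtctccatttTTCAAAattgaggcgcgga
Kif18a, chr2:109280488-109280737, plus strand: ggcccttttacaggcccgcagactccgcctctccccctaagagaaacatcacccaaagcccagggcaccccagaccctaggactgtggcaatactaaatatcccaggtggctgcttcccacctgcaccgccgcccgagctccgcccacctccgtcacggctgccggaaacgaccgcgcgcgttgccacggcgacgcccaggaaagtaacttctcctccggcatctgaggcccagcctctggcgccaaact

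Of these 4 runs only that of Kif11 holds either motif, and it holds both. RefSeq windows of 300 bases (250 before the start and 50 after it) were matched for 49 of the 65 genes, 11 of them transport and 10 mitotic kinesins. TTTGAA or its reverse complement was in 0 of the 11 transport windows, 9 of the 10 mitotic windows and 17.9% of all 32851 windows in the table. Kif18a was the mitotic gene without it. CCAAT, read on both strands, was in 3 transport and 6 mitotic windows, against 37.4% of all windows. The GC box GGGCGG was in 9 transport and 6 mitotic windows and 35.7% of all windows, and the TATA box TATAAA was in 1 of each and 13.6% of all. The motifs were searched separately, so that overlaps count for both. The transport windows had a median GC content of 69.3% and the mitotic windows 60.2%, against 52.7% over all windows, so the base composition differs along with the motif counts. The windows of 1 transport gene, Kif17, and of 3 mitotic genes, Kif22, Kif23 and Kif2c, lie over 1000 bases from the start of the transcript with the most TPM. A match is a description of the letters and not a bound site.

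Kinesin-1, the classic motor of fast axonal transport, is built from heavy chains that walk and light chains that bind cargo. Kif5a, a heavy chain restricted mainly to neurons, lies on chr10:127225696-127263348 and had 315 TPM in replicate 1 and 295 TPM in replicate 2, rank 134 among detected protein-coding genes. It was the most abundant of the 65 genes in the gene quantification and the third in the second one, where Dynll1 (664 TPM) and Kif1a (513 TPM) stood above it (488 TPM). A 528-base transcript, Kif1a-206, held 30.1% of the Kif1a TPM in the second quantification and 8.59% in the first. The Kif1a rank there thus rests in part on a short transcript. Kif5c, the other heavy chain enriched in neurons, had 225 and 209 TPM. Kif5b, the heavy chain that most cell types use, had 57.1 and 54.6 TPM. Kif5a held 52.8% ± 0.0841 of the summed heavy chain TPM, Kif5c 37.6% ± 0.222 and Kif5b 9.67% ± 0.138 (SD, n = 2). The 2 libraries thus gave the same order and nearly the same shares. The second quantification kept that order with 47.7%, 37.5% and 14.8%, so the Kif5b share is less certain than its spread between libraries.

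Among the light chains, Klc1 had 279 and 286 TPM in replicates 1 and 2, and Klc2 had 94.3 and 89.4 TPM. Klc1 is enriched in neurons, and it held 73.6% of the light chain TPM in both quantifications. Klc4 was far lower at 7.71 ± 0.693 TPM (SD, n = 2), and Klc3, known for its expression in developing sperm, was near the detection limit at 1.43 and 1.37 TPM. Summed heavy chains stood at 1.56 and 1.46 times the summed light chains. This ratio was 1.96 and 1.80 in the second quantification, while kinesin-1 itself holds heavy and light chains in equal number.

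Kinesin-3 motors carry vesicle precursors. Kif1a, which moves synaptic vesicle precursors along axons, had 262 TPM in replicate 1 and 236 TPM in replicate 2. Kif1b, whose forms carry mitochondria or synaptic vesicle precursors, had 164 and 160 TPM. Kif1c, a vesicle motor, had 31.1 and 30.0 TPM. Kif1a thus held 56.3% ± 1.42 (SD, n = 2) of the TPM of these genes, Kif1b 36.8% and Kif1c 6.92%. The endosomal kinesin-3 genes were lower: Kif13b averaged 9.53 ± 0.693 TPM (SD, n = 2), Kif13a 8.84 and 7.11 TPM, and Kif16b 4.18 and 4.08 TPM, the lowest of all transport kinesins.

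Kinesin-2 works as a heterodimer of Kif3a with Kif3b or Kif3c, and the first also drives transport inside cilia. Kif3c, the partner enriched in neurons, had 68.9 TPM in replicate 1 and 67.0 TPM in replicate 2. Kif3a, the chain common to both dimers, had 54.3 and 47.4 TPM, and Kif3b had 22.7 and 20.4 TPM. Kif3c therefore stood above Kif3a in the gene quantification, with 48.5% against 36.2% of the summed TPM. The order was turned round in the second quantification, with 42.7% for Kif3c and 44.9% for Kif3a, so no order of these chains can be given. Kif3b was lowest in both, with 15.4% and 12.4%. Kif17, the kinesin-2 motor known for carrying NMDA receptor vesicles in dendrites, had 8.95 and 8.96 TPM.

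Kif21a and Kif21b are kinesin-4 motors that also restrain microtubule growth. Kif21a had 51.4 and 49.1 TPM in replicates 1 and 2, and Kif21b had 13.8 and 13.2 TPM. Kif21a held 78.8% of their sum, and 78.2% in the second quantification.

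**Figure D2:**
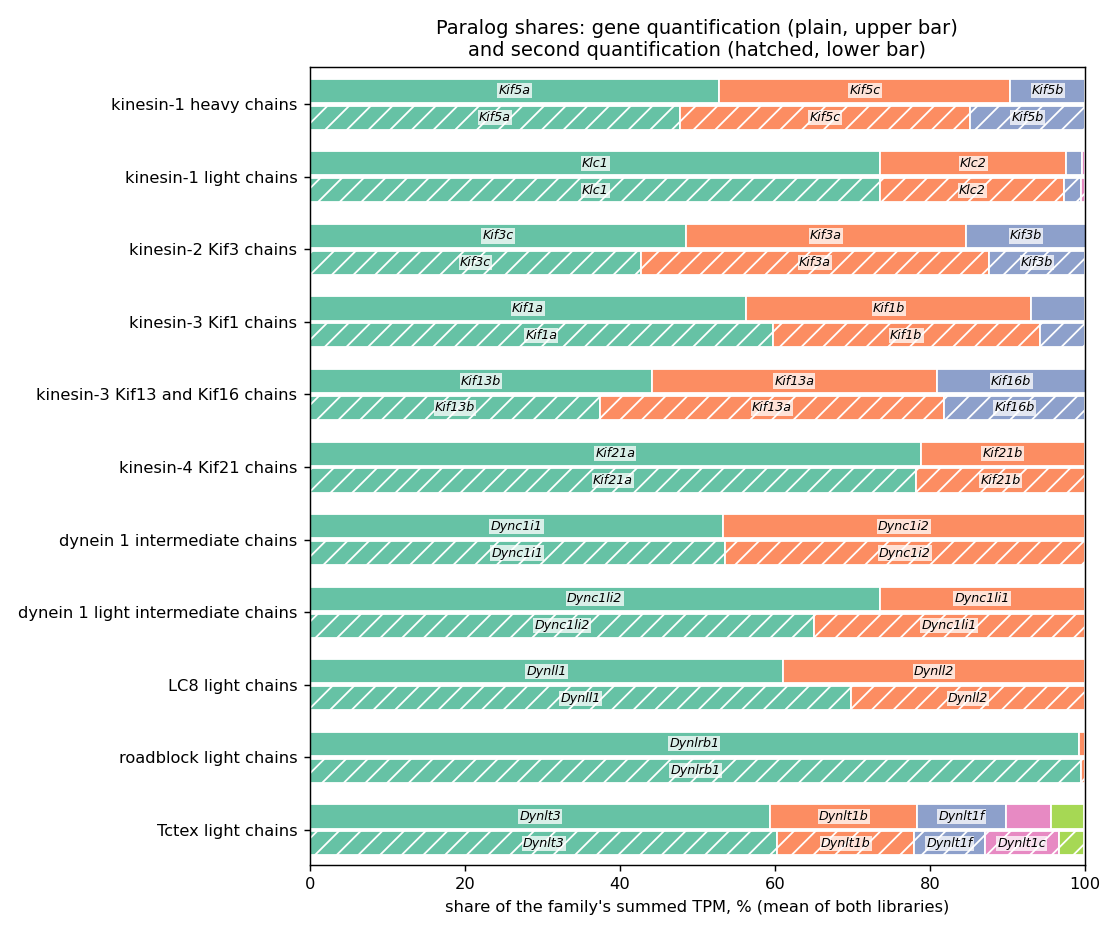
Share of each paralog in the summed TPM of its subunit family, mean of both libraries, in the gene quantification (plain upper bars) and the second quantification (hatched lower bars). Klc1 and the intermediate chains keep their shares, while Kif3c and Kif3a exchange first place (48.5% and 36.2% against 42.7% and 44.9%).

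The mitotic kinesins were near the floor of the measurement. Kif22, a chromokinesin that pushes chromosome arms, was the only detected gene of the list, with 4.04 TPM from 31 counts in replicate 1 and 3.07 TPM from 20 counts in replicate 2. A 295-base retained-intron transcript of 12 counts in each library held 75.8% of that TPM. Without transcripts under 300 bases, an alternative chosen after the data were seen, Kif22 had 1.39 and 0.330 TPM and none of the 11 mitotic kinesins was detected. In the gene quantification the detection of Kif22 therefore rests on a few reads of a short annotated fragment. In the second quantification Kif22 was also detected, with 3.91 and 3.97 TPM from 35 and 26 counts. There protein_coding transcripts held 99.0% and 99.5% of its TPM, and the 295-base transcript held 0%. The most abundant Kif22 transcript there, Kif22-202, is itself only 518 bases long. The other mitotic kinesins detected there were Kif20b, Kif23, Kif15 and Kif2c. Their most abundant transcripts in that quantification have 788, 632, 949 and 629 bases.

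The other 10 mitotic genes had mean levels of 0.0750 to 0.830 TPM. Kif11, the motor that pushes spindle poles apart, had 45 and 35 counts (0.430 and 0.320 TPM). Kif18a, which limits chromosome oscillation at the metaphase plate, had 30 and 42 counts (0.440 and 0.530 TPM). Kif20b and Kif23, both motors of cytokinesis, had 0.620 and 1.04 TPM and 0.620 and 0.930 TPM in replicates 1 and 2. Every mitotic gene had reads in both libraries of the gene quantification, with at most 45 counts in replicate 1 and 42 in replicate 2. No mitotic kinesin reached the 50 counts set for a ratio between libraries, so none is given.

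Genes that act beside these motors in division were also low. Of 18 cell cycle genes, 2 were detected, against 57.9% of all genes with a protein_coding transcript, and the median was 0.607 TPM. In the second quantification 8 of them were detected, against 13580 of all 21901 genes, with a median of 1.16 TPM. The highest were Incenp, a scaffold of the chromosomal passenger complex, with 5.72 and 5.59 TPM in replicates 1 and 2, and Racgap1, the partner of Kif23 in the central spindle, with 2.03 and 2.34 TPM. Cdca8, another passenger subunit, had 1.17 and 0.550 TPM. Mki67, the common proliferation marker, had 91 and 70 counts, a mean of 0.355 TPM.

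The microtubule end and cilium kinesins split in level. Kif2a, a depolymerase that trims axon branches in developing neurons, had 47.5 TPM in replicate 1 and 44.5 TPM in replicate 2. The others of the list had means of 2.02 TPM or less. The motors of motile cilia were just above the detection limit: Kif6 had 2.05 and 1.99 TPM, Kif9 1.52 and 1.12 TPM, Kif27 1.35 and 1.48 TPM, and Kif19a, which shortens cilia, 1.17 and 2.09 TPM. These levels count all transcripts. In the first transcript quantification, those not annotated as protein_coding held 81.0% and 68.5% of Kif6. The shares were 34.1% and 38.3% for Kif27, 15.5% and 49.5% for Kif19a, and 0% for Kif9. Kif7, a regulator of Hedgehog signalling at the tip of the primary cilium, averaged 0.815 ± 0.0212 TPM (SD, n = 2) and was not detected. Kif24 had 0.490 and 0.370 TPM, and the testis gene Kif2b had no count in either library, so that up to 0.0622 and 0.0605 TPM would go unseen (3 counts, counting error only).

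Of 16 annotated genes of axonemal dynein and cilia, 10 were detected, a share close to the 57.9% over all genes with a protein_coding transcript. The highest were Ift172 (32.9 and 28.3 TPM), Wdr34 (15.2 and 16.0 TPM) and Ccdc39 (11.5 and 9.44 TPM). Ift172 is a subunit of the transport trains of cilia, Wdr34 an intermediate chain of dynein 2, and Ccdc39 is a ruler of the motile axoneme. Markers of ependyma, the ciliated lining of the ventricles, were low, with 2 of 4 detected and sums of 8.21 and 9.55 TPM. Foxj1 had 1.76 and 1.70 TPM. Of 3 choroid plexus markers, Ttr differed between the libraries, with 10.6 TPM in replicate 1 and 23.1 TPM in replicate 2. Kl was nearly equal in them, with 4.04 and 3.96 TPM, and Folr1 had 1 and 4 counts. The part of such cells in the cilium kinesin levels was not tested.

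The remaining kinesin-named genes are mixed. Kif1bp, the KIF-binding protein, is not a motor but a partner that holds some kinesins off microtubules, and it had 87.8 TPM in replicate 1 and 90.1 TPM in replicate 2. Kif26b and Kif26a, atypical kinesins, had 8.66 and 7.86 TPM and 2.03 and 2.25 TPM. Kif28 had 6 and 5 counts. Kif12 had no count in either library, with limits of 0.0745 and 0.0725 TPM. The C-kinesins, minus-end kinesins outside the name rule, also differed: Kifc2, a neuronal motor, had 121 and 123 TPM and Kifc3 24.9 and 22.9 TPM, while Kifc5b had 1.16 and 1.11 TPM and the mitotic Kifc1 0.740 and 0.700 TPM.

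Cytoplasmic dynein 1 was detected with every subunit gene. Dync1h1, the heavy chain with the motor domain, had 114 TPM in replicate 1 and 111 TPM in replicate 2. Of the intermediate chains, which link the motor to dynactin, Dync1i1 had 61.1 and 62.0 TPM and Dync1i2 55.1 and 52.9 TPM. Dync1i1, the form enriched in neurons, held 53.3% ± 0.947 (SD, n = 2) of their sum, and 53.5% in the second quantification. Of the light intermediate chains, which bind cargo adaptors, Dync1li2 had 111 and 98.8 TPM and Dync1li1 39.3 and 36.1 TPM. Dync1li2 held 73.5% of that pair, but 65.0% in the second quantification and 64.3% without transcripts under 300 bases. A 144-base annotated transcript with 41 and 34 counts carried 35.3% of the Dync1li2 TPM.

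Relative to the heavy chain, intermediate chains summed to 1.02 in replicate 1 and 1.04 in replicate 2, and light intermediate chains to 1.32 and 1.22. The second quantification gave 1.13 and 1.24 for the intermediate chains and 1.05 and 1.03 for the light intermediate chains. All these chains are thus at about the level of the heavy chain they join. In the dynein complex each of them is present in as many copies as the heavy chain.

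The light chains of dynein were more uneven. Dynll1 had 296 TPM in replicate 1 and 287 TPM in replicate 2, the second highest of the 65 genes in the gene quantification and the highest in the second one, and Dynll2 had 190 and 181 TPM. These LC8 chains bind many proteins besides dynein, and their sum was 4.27 and 4.22 times the TPM of Dync1h1 (5.67 in each library of the second quantification). Dynlrb1, a roadblock light chain, had 121 and 112 TPM and held 99.2% of its pair. Its paralog Dynlrb2, known from ciliated cells and testis, had 1.18 and 0.620 TPM from 11 and 6 counts. Dynlt3, a Tctex light chain on the X chromosome, had 52.7 and 48.7 TPM.

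The coding sequences of the LC8 genes and of the Dynlt1 copies are shown because they set how well reads can be told apart between paralogs. Each run is the first 90 coding bases of an annotated transcript (GENCODE M21, mm10), and capitals mark bases that differ from the first run of its group.
Dynll1, chromosome 5, minus strand: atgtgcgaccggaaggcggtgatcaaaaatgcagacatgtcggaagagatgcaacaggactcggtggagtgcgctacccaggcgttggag
Dynll2, chromosome 11, minus strand: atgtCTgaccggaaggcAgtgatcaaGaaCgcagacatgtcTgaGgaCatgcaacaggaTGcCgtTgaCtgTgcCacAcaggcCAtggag
Dynlt1b, chromosome 17, plus strand: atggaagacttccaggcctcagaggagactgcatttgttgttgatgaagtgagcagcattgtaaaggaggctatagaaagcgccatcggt
Dynlt1a, chromosome 17, minus strand: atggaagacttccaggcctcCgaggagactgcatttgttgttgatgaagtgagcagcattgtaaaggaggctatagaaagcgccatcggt
Dynlt1c, chromosome 17, plus strand: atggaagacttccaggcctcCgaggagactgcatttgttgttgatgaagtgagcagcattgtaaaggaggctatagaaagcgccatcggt
Dynlt1f, chromosome 17, minus strand: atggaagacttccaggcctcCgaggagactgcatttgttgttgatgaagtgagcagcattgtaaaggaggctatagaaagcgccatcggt

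Dynll1 and Dynll2 differ at 50 of 267 coding bases (81.3% identity), and 18 of those differences fall in the first 90. The Dynlt1 copies lie within chr17:6306340-6655900. The 339 coding bases of Dynlt1a, Dynlt1c and Dynlt1f are identical, and Dynlt1b differs from them at 1 base, which is in the stretch shown. Dynlt1b had 18.4 TPM in replicate 1 and 14.2 TPM in replicate 2, Dynlt1f 9.84 and 9.62 TPM, Dynlt1c 5.64 and 4.29 TPM, and Dynlt1a 4.19 and 3.29 TPM. These were also the only 4 of the 65 genes with a posterior SD of the count above 1, at 12.8 to 25.2 counts on 181 to 354 counts a gene. Dynlt1c had 11.2 TPM in the gene quantification and 20.8 TPM in the second, each rescaled to 1 fixed sum over protein-coding genes. Split values of the copies are therefore uncertain. Their summed TPM, 38.1 in replicate 1 and 31.4 in replicate 2, also depends on the split, since a count adds more TPM in a copy with shorter transcripts. The processed pseudogene Dynlt1-ps1 had 5.49 and 5.72 TPM from 30 and 32 counts.

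Dynein 2, the motor that returns cargo from the tips of cilia, was lower than dynein 1. Its heavy chain Dync2h1 had 12.8 and 12.2 TPM in replicates 1 and 2, and its light intermediate chain Dync2li1 had 8.35 and 10.1 TPM.

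Dynactin, the complex that ties dynein to cargo and makes it processive, was detected with all 6 members. Dctn1, the arm that binds dynein and microtubules, had 163 TPM in replicate 1 and 162 TPM in replicate 2, which is 1.43 and 1.46 times Dync1h1. Dctn2, the dynamitin subunit of the shoulder, had 111 and 107 TPM. It lies on chromosome 10 at 127266368 to 127281950, 3019 bases from Kif5a and in the opposite direction, so that the starts of these genes face away from each other. Dctn3, another shoulder subunit, had 62.1 and 59.1 TPM. Over all their transcripts the pointed-end subunits were close in level, with 52.6 and 51.9 TPM for Dctn6, 42.5 and 39.9 TPM for Dctn5, and 39.2 and 38.9 TPM for Dctn4. Protein_coding transcripts held only 15.9% of the Dctn6 TPM, against 83.1% for Dctn5 and 86.0% for Dctn4. In the second quantification these shares were 57.0%, 57.7% and 84.8%.

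The other dynactin genes, which form the actin-like filament and its cap, were detected in 6 of 6 cases. Capzb had 170 TPM in replicate 1 and 175 TPM in replicate 2, Capza2 122 and 129 TPM, Actr1b 115 and 106 TPM, Actr1a 75.1 and 74.5 TPM, Actr10 69.9 and 73.7 TPM, and Capza1 16.1 and 12.2 TPM. The capping proteins Capzb, Capza1 and Capza2 also cap ordinary actin filaments. Of the dynein regulators, Pafah1b1, the LIS1 protein that activates dynein, had 156 and 141 TPM, and its partners Ndel1 and Nde1 had 33.0 and 34.8 TPM and 12.6 and 10.2 TPM.

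All 24 genes of a list of cargo adaptors were detected, against 57.9% of all genes with a protein_coding transcript. Their median was 52.9 TPM, close to the 50.3 TPM of the transport kinesins. The highest were Mapk8ip3 (167 and 154 TPM), Mapk8ip1 (138 and 140 TPM), both JIP scaffolds that bind kinesin-1, and Fez1 (112 and 113 TPM), a kinesin-1 adaptor of axons. The lowest was Hook2 at 4.06 and 3.42 TPM.

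The libraries were close for these genes. Of the 48 genes with at least 50 expected counts in both, 0 were 2-fold or more apart in TPM, against 0.230% of all 12621 genes under the same rule. Across the 65 genes, log2(TPM + 1) correlated between the libraries with Pearson's r = 0.9985 and Spearman's rho = 0.9965, given as a description, since genes are not independent replicates. The median log2 ratio of replicate 2 over replicate 1 was -0.07 for the 48 genes and -0.04 for all genes. It was below 0 for 39 of the 48 genes, 81.2%, against 62.6% of all genes. With counts scaled by TMM, 31 of 48, 64.6%, were below 0, against 48.0% of all genes, and the median was -0.02 for the 48 genes and 0.01 for all. In the second quantification 37 of 48 were below 0, against 6961 of 12605 genes, and the medians were -0.05 and -0.02. The lean toward replicate 1 is thus small, and its share of genes depends on the scaling. In each of these comparisons that share was higher than over all genes, and the cause was not tested.

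**Figure D3:**
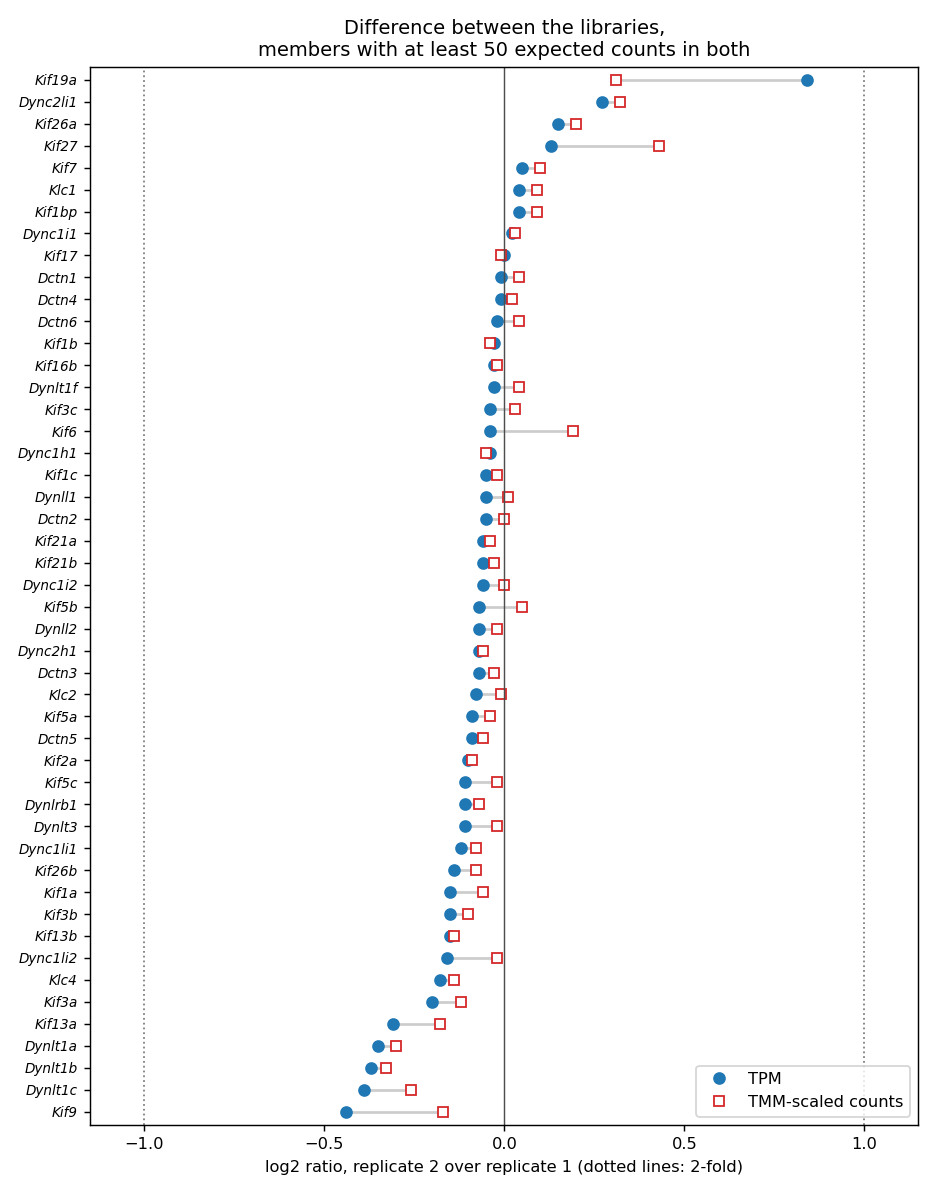
log2 ratio of replicate 2 over replicate 1 for the 48 genes with at least 50 expected counts in both libraries, from TPM (filled circles) and from TMM-scaled counts (open squares). No gene reaches the dotted 2-fold lines, and Kif19a moves from 0.84 in TPM to 0.31 in scaled counts.

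The lowest ratio in TPM was that of Kif9, at -0.44 (78 counts in replicate 1 and 69 in replicate 2), and the highest that of Kif19a, at 0.84 (60 and 74 counts). In TMM-scaled counts these were -0.17 and 0.31. For Kif19a, 3 counts were worth 0.0583 TPM in replicate 1 and 0.0847 TPM in replicate 2, so the length assigned to the gene differed between the libraries. The Dynlt1 copies Dynlt1a, Dynlt1b and Dynlt1c had ratios of -0.35, -0.37 and -0.39, and the sum over all 4 copies had -0.28. Among well-covered genes the ratio was -0.09 for Kif5a, 0.04 for Klc1, -0.04 for Dync1h1 and -0.01 for Dctn1. Others of them lay further from 0, at -0.15 for Kif1a, -0.16 for Dync1li2 and -0.20 for Kif3a.

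The quantifications were compared after each was rescaled to 1 fixed sum over protein-coding genes. This step was needed because protein-coding genes held 44.7% and 43.6% of the TPM of replicates 1 and 2 in the gene quantification, against 78.8% and 78.7% in the second quantification. Of 62 members compared, 4 were 2-fold or more apart, 6.45%, against 2.34% of all genes. All 4 were lower in the gene quantification, again 6.45%, against 1.54% of all genes. They were Kif24 (0.972 rescaled TPM against 20.1), Kif2c (0.453 against 4.78), Kif14 (0.170 against 0.516) and Kif15 (0.999 against 2.88). In Kif24, a centriole kinesin, 96.8% of the second value lay in the noncoding transcript Kif24-204, which shares 48.6% of its 31-base words with transcripts of 101 other genes, most of all Abhd2. Kif24 had 21 and 27 counts in the gene quantification and 256 and 218 counts in the second. The others are mitotic kinesins with at most 53 counts in any library of either quantification.

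**Figure D4:**
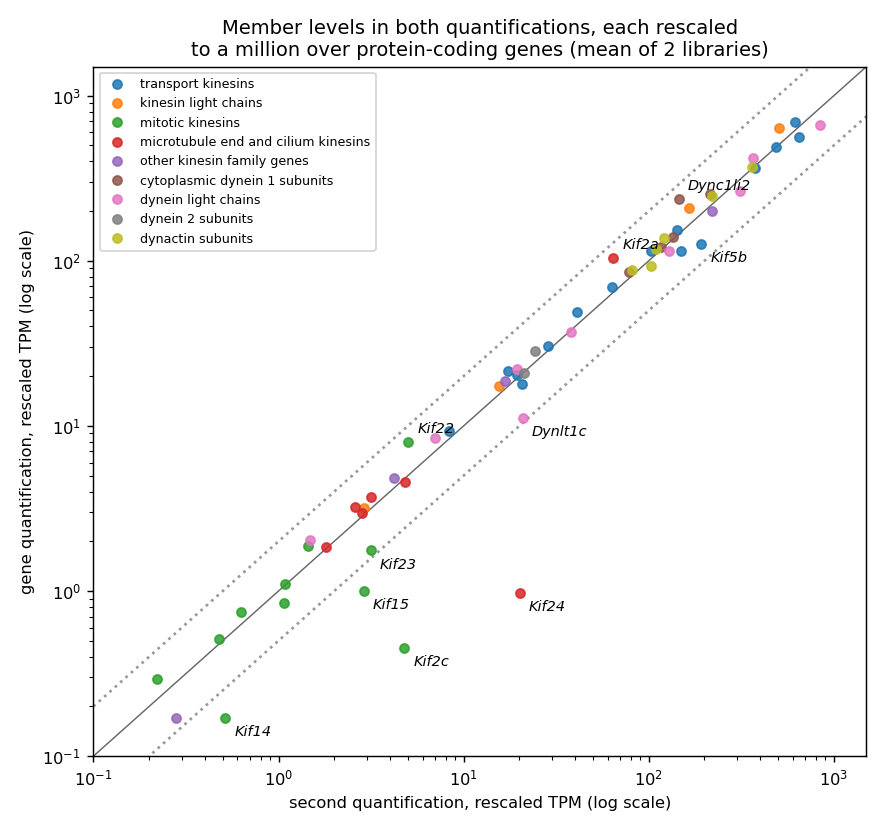
Rescaled TPM (mean of 2 libraries) in the gene quantification on the y axis against the second quantification on the x axis, both on log scales, for the members above 0 in both. The solid line marks equal values and the dotted lines 2-fold differences, and Kif24, Kif2c, Kif15 and Kif14 lie below the lower dotted line.

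Among abundant members the largest difference was that of Dync1li2, with 237 rescaled TPM in the gene quantification and 145 in the second, a ratio of 1.64. Kif2a had a ratio of 1.61, and 31.9% of its TPM lay in a 288-base transcript that the second quantification put at 0. Kif5b went the other way with a ratio of 0.659. Kif5a, Kif5c, Kif1b and Dctn1 had ratios of 1.11, 1.01, 0.974 and 1.02.

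Transcript forms were compared between the first transcript quantification, which belongs to the gene values, and the second. Of the 30 members with a mean of at least 10 TPM and more than 1 transcript, 25 (83.3%) had the same most abundant transcript in both, against 75.1% of all genes. The exceptions were Kif21a, Dync1i2, Dynll1, Dynlrb1 and Kif2a. In Dynlrb1 the most abundant transcript, Dynlrb1-202, held 98.0% of the TPM in the first quantification but 26.0% in the second. For Dynlrb1 the second also differed between libraries, with 35.5% in replicate 1 and 15.7% in replicate 2. Kif21a-204 held 65.9% and 23.2% of Kif21a in the first and second quantification, Dync1i2-208 56.0% and 23.0% of Dync1i2, and Kif2a-205 31.9% and 0% of Kif2a. A noncoding transcript held 44.1% and 37.7% of Dynll1, and the coding Dynll1-202 held 40.7% and 59.4%. No isoform order can be given for these 5 genes.

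In 6 further genes a second transcript held at least 20% of the TPM while both quantifications named the same first. Klc2-204 held 42.8% of Klc2 and Klc2-201 36.9%, but the second quantification put 88.6% and 0.239% there. In Dync1li2 the full coding transcript Dync1li2-201 held 44.7%, and 69.6% in the second quantification. Dctn4-201 and Dctn4-204, which encode 460 and 467 codons, held 54.5% and 27.7% of Dctn4 in the first quantification, and 45.4% and 35.1% in the second. In Dync2h1 the long transcripts Dync2h1-206 and Dync2h1-204 held 28.2% and 27.9%, and 34.3% and 27.2% in the second.

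Kif3c and Kif21b complete that group. The main Kif3c transcripts encode the same 796 codons and differ in the 3′ end: the proximal end held 51.1% ± 1.57 of their TPM, and 64.7% ± 0.930 in the second quantification (SD, n = 2). Both annotated ends thus had reads assigned to them, and the share of each depends on the quantification. Where the RNAs end was not tested. An antisense gene, 1110002L01Rik, with a mean of 2.78 TPM, overlaps 2617 exonic bases of Kif3c. In Kif21b a transcript annotated for nonsense-mediated decay held 56.3% and 52.8% of the TPM of the 2 full-length forms, and 54.0% and 56.7% in the second quantification. The coding form held the rest, 45.4% on average and 44.7% in the second quantification.

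Other forms were chosen after their values were seen. The short coding form of Kif1b, of 1150 codons, held 2.20% and 2.17% of the TPM of its full-length coding forms in replicates 1 and 2, while the long forms of 1770 to 1816 codons held 97.8% in each. The second quantification gave 1.99% and 98.0%. In mouse the short form is the one first described as a mitochondrial motor, and the long form is the vesicle motor. Dctn1 transcripts whose coding starts downstream, with 1142 codons, held 25.8% and 25.9%, and those with upstream starts, 1239 to 1281 codons, held 74.2% and 74.1%. The N-terminal end of Dctn1 that the downstream start leaves out is where its microtubule-binding CAP-Gly domain lies. The second quantification gave 26.7% for the downstream start. Klc1 transcripts with the earlier coding end, of 542 and 560 codons, held 83.1%, and 77.5% in the second quantification.

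**Figure D5:**
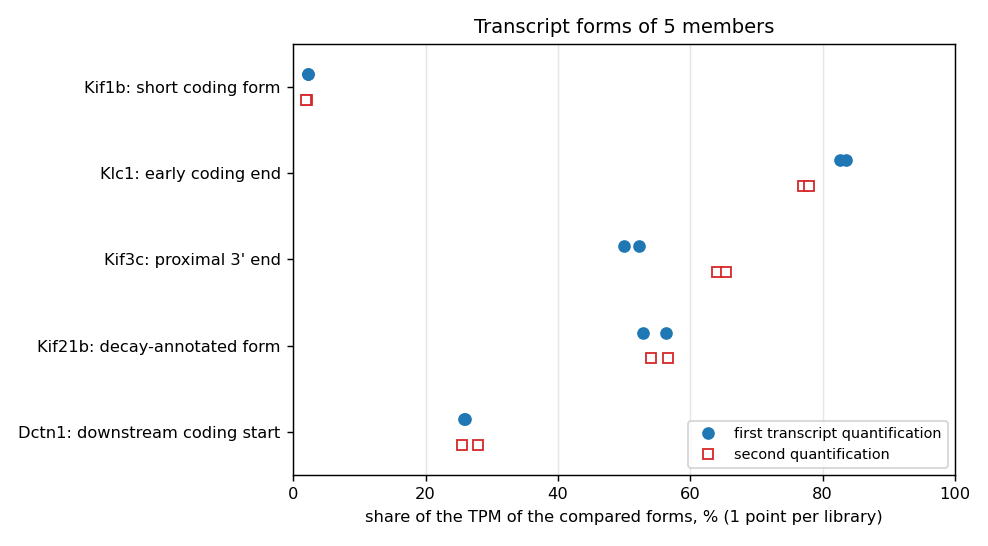
Share of the named form in the summed TPM of the compared forms of Kif1b, Klc1, Kif3c, Kif21b and Dctn1, 1 point per library, in the first (filled circles) and second (open squares) transcript quantification. The Kif1b, Kif21b and Dctn1 shares nearly coincide, and those of Klc1 (83.1% and 77.5%) and Kif3c (51.1% and 64.7%) do not.

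Transcripts not annotated as protein_coding held a median of 6.81% of the TPM over the 32 members with a mean of at least 10 TPM, against 11.9% over 7857 genes. Dctn6 was highest, with 83.7% and 84.6% in replicates 1 and 2, nearly all of it in retained-intron transcripts. In the second quantification it was 35.3% and 50.7%. The most abundant Dctn6 transcript, the retained-intron Dctn6-210, shares 16.9% of its 31-base words with the opposite-strand gene Gm26768, listed at 0 TPM. Kif21b followed with 64.7%, and kept that level in the second quantification with 66.5%. Dynll1 had 55.2% and Dync1li2 41.9% outside coding transcripts, and 38.8% and 9.64% in the second quantification.

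Exons of some members overlap those of other genes, and whether the counting used strand is not given in the sources used here. Reads of such pairs then cannot be told apart with certainty. Among the mitotic kinesins, Kif20a shares 1271 exonic bases with Cdc23 (26.0 TPM) and Kif4 832 bases with Pdzd11 (18.1 TPM), both on the opposite strand and both far more abundant than the kinesin. Kif2a shares 1229 bases with Dimt1 (9.29 TPM), and Klc3 744 bases with Ercc2 (14.1 TPM). Kif28 shares 155 bases with Ahctf1 on the same strand.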

How the data were processed

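Total RNA-seq of 2 hippocampus libraries in 1 group was analysed. Per the deposited text listings, the gene and first transcript quantifications came from transcriptome alignments and the second directly from reads, on mm10 with GENCODE M21. Which programs were run is not given in the sources used here. Deposited expected counts, per the file headers, estimate the reads belonging to each gene or transcript, and TPM as deposited is scaled by length over all entries. Per the file headers, the posterior SD of the count is the spread of a gene's count within a library; it was used to describe read sharing.

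From these, detection (at least 1 TPM in both libraries), list medians, family shares, TPM ratios of replicate 2 over replicate 1 (at least 50 counts in both, called at 2-fold), transcript shares and correlations were computed with Python 3.11.15, pandas 2.3.3 and numpy 2.4.6. TMM factors on expected counts rounded to whole numbers came from edgeR 4.0.16 under R 4.3.3. The ratio call was run on counts simulated with counting error only and with changes larger than 2-fold. That run checks the code, and covers neither differences between animals nor TPM. Shared words are runs of 31 bases. Total expected counts were 31422827 and 31303010. A count of 0 allows up to 3 counts, covering counting error only. No test between groups was possible.

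Members and lists were chosen with earlier results of these data known. The rule named every member with a mean of at least 10 TPM, detected mitotic kinesins, members at 0 counts, isoforms of members with a second transcript of at least 20% or a first transcript that differed between quantifications, the 3 highest of each partner list and all of lists of at most 7. Others named were chosen after their values were seen. Alternatives covered thresholds, pseudocounts, scaling, the second quantification, short transcripts and each library left out. CAST/EiJ reads were assigned to the C57BL/6J reference, and losses from this were not measured.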

Additional observations from a re-analysis of the deposited data

How the results depend on the processing

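No paired analysis was possible because there is 1 group. The count of mitotic kinesins detected was 3 at 0.5 TPM, 0 at 5 TPM, 5 in the second quantification and 0 without transcripts under 300 bases, an alternative chosen after seeing the data, and 1 to 2 with a library left out. The microtubule end and cilium list had 1 at 5 TPM. Of all 21901 genes, 13580 were detected in the second quantification, and the share of all genes was not computed for the other alternatives. List medians were higher when TPM was rescaled over protein-coding genes, and in the second quantification: transport kinesins 114 and 81.0, light chains of kinesin 113 and 70.6, mitotic kinesins 0.847 and 0.856, microtubule end and cilium kinesins 3.09 and 2.36, other kinesin genes 4.85 and 3.29, dynein 1 139 and 106, dynein light chains 36.9 and 30.0, dynein 2 24.6 and 17.9, and dynactin 128 and 90.7 TPM. Among members at 0.1 TPM or more the medians were 0.408 for mitotic, 1.42 for microtubule end and cilium, and 8.26 for other kinesin genes. With a library left out, they ranged over 47.4 to 51.4 for transport, 48.3 to 51.2 for light chains of kinesin, 0.320 to 0.350 for mitotic, and 1.26 to 1.30 for microtubule end and cilium kinesins. The transport to mitotic median ratio was 84.7 in the second quantification and 122 with the filter at 0.1 TPM. Family shares in the second quantification were 47.7% for Kif5a, 42.7% for Kif3c, 59.7% for Kif1a, 65.0% for Dync1li2 and 69.8% for Dynll1; without short transcripts they were 72.4% for Klc1 and 64.3% for Dync1li2. The median share outside coding transcripts was 9.40% in the second quantification and 6.35% to 8.20% with a library left out. The correlation was 0.9973 with a pseudocount of 0.1. Some orders changed: Kif3a stood above Kif3c, and Dynll1 and Kif1a above Kif5a, in the second quantification, and the light chain median stood above the transport median without replicate 1. The causes were not tested, except that rescaling divides by the protein-coding total. Depth limits the mitotic list, whose genes have at most 45 counts in the gene quantification and at most 64 in the second.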

Other observations

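4 annotated genes whose names begin like those of the members have no protein_coding transcript and were left out by the rule. Kif22-ps, Kif4-ps and Kif16bos had 0 counts in both libraries, and the processed pseudogene Dynlt1-ps1 had 30 counts in replicate 1 and 32 in replicate 2. Of the 18 axonemal dynein and cilium genes listed, 2 were not found in the annotation used.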
